A study of Mus musculus with 3 samples.

Results

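The genes described here are *Il10* and *Il19*, which code for the cytokines IL-10 and IL-19, with their relatives *Il20* and *Il24* and the receptor genes *Il10ra*, *Il10rb* and *Il20rb*, in LPS-stimulated RAW macrophages pre-treated or not with lactobacilli. They were found by gene name among the gene probes of the array, which gave 7 genes with 13 probes out of 26840 genes with a symbol and 56605 gene probes. *Il19* was selected on its high ratio of CRL1505 + LPS over LPS in these same arrays, and the others as its neighbours, relatives and receptors, so the values of that contrast are a description and support nothing. Each other contrast shares an array with it. The labelled cell type was checked against macrophage markers, and the probes of 8 of 8, among them *Cd68*, *Csf1r* and *Lyz2*, were well above background on every array.

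IL-10 is the main cytokine by which macrophages restrain their own response to TLR4 stimulation. It binds a receptor made of IL-10RA, which is specific for it, and IL-10RB, which it shares with other cytokines of the family, and the receptor signals through JAK1, TYK2 and STAT3 to raise genes such as *Socs3*. IL-19, IL-20 and IL-24 form a subfamily encoded next to *Il10*, and they signal through receptors that contain IL-20RB, joined to IL-20RA or, for IL-20 and IL-24, to IL-22RA1.

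RAW cells are a transformed mouse macrophage line. All 3 groups received LPS, the TLR4 agonist, at 50 ng/mL, and each group is 1 array. The first group had LPS alone, the second (CRL1505 + LPS) *L. rhamnosus* CRL1505 before LPS, and the third (CRL1506 + LPS) *L. plantarum* CRL1506 before LPS, with 50000000 lactobacilli per mL added for 24 h and washed off before LPS. The time with LPS is 12 h in the design text and 3 h in the sample descriptions. Non-stimulated cells were not analysed here. With 1 array per group there is no replicate check and no p-value. By the headers of the files, LPS and CRL1506 + LPS shared a slide and a scan run and CRL1505 + LPS had a slide and run of its own, so that the CRL1505 strain and its slide cannot be told apart. Between 48.5% and 55.3% of the gene spots were well above background on each array, the lowest share being that of CRL1505 + LPS. Of 15 markers of T cells, B cells, epithelial cells and fibroblasts, 7 were well above background on no array, among them *Cd3g*, *Cd79a*, *Krt5* and *Pdgfra*, and 4 on all of them (*Cd3e*, *Lck*, *Ms4a1* and *Pax5*). The unscaled summed intensity of the macrophage markers was 517200 with LPS, 347400 with CRL1505 + LPS and 393500 with CRL1506 + LPS. These sums also carry the brightness of each array. After scaling between arrays, the median log2 ratio to LPS of the macrophage markers was 0.15 for CRL1505 and -0.22 for CRL1506. Over other normalizations it ran from -0.36 to 0.45 for CRL1505 and from -0.42 to -0.09 for CRL1506. Within that list, the log2 ratios to LPS were 2.40 for CRL1505 and 0.95 for CRL1506 with *Fcgr1*, and -1.47 for CRL1505 and -0.87 for CRL1506 with *Csf1r*, the M-CSF receptor gene. *Adgre1*, which codes for F4/80, was 4.83-fold higher with CRL1505 + LPS and 2-fold higher with CRL1506 + LPS. The unscaled sums for the 3 arrays in the same order were 3199, 4944 and 3973 for T cell markers. They were 184.2, 91.8 and 195.2 for B cell markers, 226.5, 40.12 and 111.7 for epithelial markers and 92.02, 124.8 and 296.6 for fibroblast markers. *Epcam* made up most of the epithelial sum with LPS (162.3, 12.27 and 58). The fibroblast sum with CRL1506 + LPS came mainly from *Col1a1* (112.5, a spot that was uneven as defined below) and *Dcn* (129.1). For each of these, 5 of the 20 nearest spots were uneven. The part of all these markers in the results below was not tested. Since RNA was taken from whole cultures, a larger share of cells with a transcript and more transcript per cell cannot be told apart.

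Each value comes from a 60-base probe, and the probes that carry the ratios are shown by their first 30 bases, because a pair of probes for the same gene that share no sequence gives 2 separate readings. All positions of probes are on mm9 as in the files, which do not state exon or UTR.
Il10 (chr1:132920943-132921002, + strand): ggaaaacctcgtttgtacctctctccgaaa
Il19 probe 1 (chr1:132829235-132829294, - strand): tgtagtgcatattgtactgactgacgttta
Il19 probe 2 (chr1:132829446-132829505, - strand): agaaaaacaattgggatttgaatggatctc
Il24 probe 1 (chr1:132783875-132783934, - strand): aagatcctctaccaatgaatgctgactgag
Il10ra probe 1 (chr9:45061922-45061981, - strand): tcaaatggaaccacaagtgttgtgtgtttt
Il10ra probe 2 (chr9:45062649-45062708, - strand): aaataatgactaggtcattcagaagtccct
Il10rb (chr16:91425892-91425951, + strand): ccatgcgggacagacatgaacattttggat
Il20rb probe 1 (chr9:100358255-100358314, - strand): ttttgtgaagcgtgtgttaaatgttatatt

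**Figure D1:**
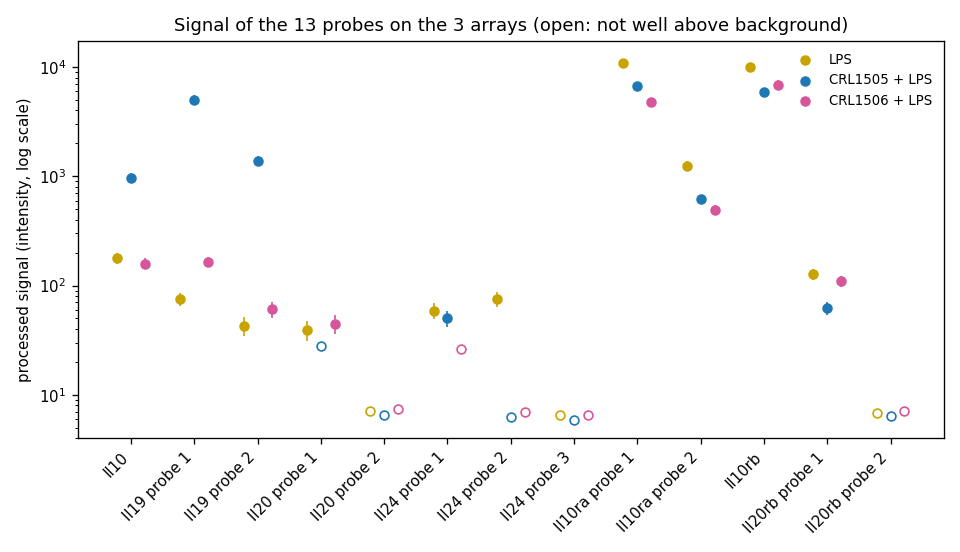
Processed signal (intensity, log axis) of the 13 probes on the LPS, CRL1505 + LPS and CRL1506 + LPS arrays, before scaling between arrays, with the software's error estimate as bars on filled points. Open points were not well above background. *Il10* and both *Il19* probes are highest on the CRL1505 + LPS array, with 4987 against 75.29 and 165.5 for *Il19* probe 1, while the *Il10ra* and *Il10rb* probes are highest on the LPS array.

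Among the ligands, *Il10* was 7.83-fold higher with CRL1505 + LPS than with LPS alone and did not move past 2-fold with CRL1506 + LPS. Its single probe read an intensity of 178.6 ± 19.5 with LPS, 972.7 ± 97.5 with CRL1505 + LPS and 159.1 ± 17.8 with CRL1506 + LPS, where ± is the error that the software gives for the spot and not a spread between cultures. The CRL1505 + LPS array thus stood apart, and the LPS and CRL1506 + LPS arrays differed by about that spot error. After each array was scaled by its 75th percentile of log2 signal, the log2 ratio to LPS was 2.97 for CRL1505 (2.46 to 3.26 over 7 other normalizations) and -0.08 for CRL1506 (-0.28 to 0.01). The ratio of CRL1505 + LPS over CRL1506 + LPS was 3.05 on the log2 scale, an 8.25-fold difference, with 2.60 to 3.54 over the other normalizations. Among all compared genes, *Il10* held place 151 of 15606 from the highest ratio for CRL1505 over LPS, 8396 of 16281 for CRL1506 over LPS and 127 of 15783 for the strains against each other.

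*Il19*, which codes for a cytokine that macrophages and keratinocytes are known to make, had the highest ratios of the 7 genes. Probe 1 read 75.29 ± 10.5 with LPS, 4987 ± 499 with CRL1505 + LPS and 165.5 ± 18.1 with CRL1506 + LPS. Probe 2, which lies next to it on the same strand, read 43.0 ± 8.66, 1387 ± 139 and 60.78 ± 10.2. On both probes the order was the same, with LPS lowest, CRL1506 + LPS next and CRL1505 + LPS far above, and all 6 spots were well above background. For CRL1505 the log2 ratio to LPS was 6.57 with probe 1, a 95.2-fold difference (5.41 to 6.87 over the other normalizations), and 5.53 with probe 2, a 46.4-fold difference (4.09 to 5.83). This was the second highest of the 15606 genes compared for that strain, where the gene was represented by its brighter probe. The LPS readings of both probes were near the lowest intensity at which a spot was well above background on that array, 33.3, so the size of the fold rests on a dim signal and was lower when the background was handled differently.

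For CRL1506 the *Il19* ratios were smaller and depended on the probe. Probe 1 gave a log2 ratio of 1.23, or 2.34-fold (0.56 to 1.31 over the other normalizations), and probe 2 gave 0.59, or 1.51-fold (0.11 to 0.68). The ratio was therefore above 0 with both probes under each of these normalizations, but past 2-fold with probe 1 alone and not with each normalization. CRL1505 + LPS exceeded CRL1506 + LPS by 5.35 on the log2 scale with probe 1 (40.7-fold) and by 4.94 with probe 2 (30.8-fold).

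*Il20* and *Il24*, which lie on the far side of *Il19* from *Il10*, were dim on every array, and no array stood out as with *Il19*. *Il20* probe 1 (chr1:132803739-132803798) read 39.03 with LPS, 27.73 with CRL1505 + LPS and 44.53 with CRL1506 + LPS. The CRL1505 + LPS reading was not well above background and the LPS spot was uneven, that is, its mean pixel signal exceeded its median by more than 0.2 on the log2 scale. No ratio could be given for CRL1505 over LPS, the log2 ratio for CRL1506 over LPS was 0.28 (0.08 to 0.37), and CRL1505 + LPS was at least 1.11-fold below CRL1506 + LPS, a bound that 2 of the 7 other normalizations gave as well and the rest did not. *Il20* probe 2 (chr1:132806293-132807358) was well above background on no array, with readings of 7.123, 6.475 and 7.399.

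*Il24* probe 1 read 58.88 ± 9.63 with LPS, 50.51 ± 8.32 with CRL1505 + LPS and 26.42 ± 8.19 with CRL1506 + LPS, the last not well above background. Scaled, the log2 ratio for CRL1505 over LPS was 0.30 and changed sign between normalizations (-0.20 to 0.80). CRL1506 + LPS was at least 1.67-fold below LPS (a log2 bound of -0.74, and -1.05 to -0.31 over the other normalizations). CRL1505 + LPS was at least 2.06-fold above CRL1506 + LPS (log2 of at least 1.04, and 0.65 to 1.72 over the other normalizations). Probe 2 of *Il24* (chr1:132779972-132780456) was read well above background with LPS alone, at 75.07, against 6.262 and 6.986 on the strain arrays, but that LPS spot was uneven. Its bounds were a difference of at least 1.76-fold for CRL1505 and at least 2.13-fold for CRL1506, both lower than LPS, so for CRL1505 the probes of *Il24* pointed in opposite directions. Probe 3 was well above background on no array.

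**Figure D2:**
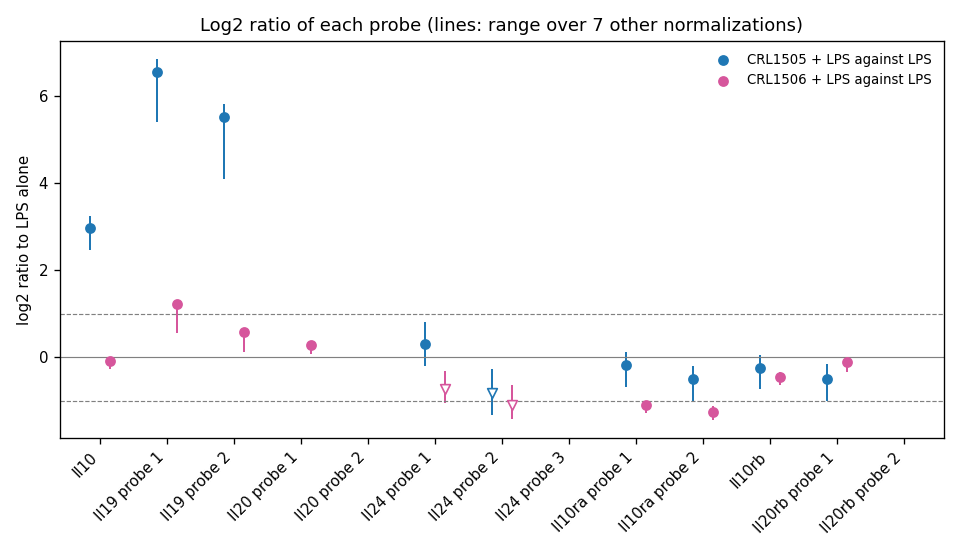
Log2 ratio to LPS alone of each probe for CRL1505 + LPS and CRL1506 + LPS after scaling to the 75th percentile, with lines for the range over 7 other normalizations and dashed lines at 2-fold. Open triangles are lower bounds of a fall, and probes without a point had no ratio. *Il10* (2.97) and both *Il19* probes (6.57 and 5.53) are past 2-fold for CRL1505 with their whole range, and both *Il10ra* probes (-1.09 and -1.25) are past 2-fold lower for CRL1506, with a range that ends at the 2-fold line for probe 1.

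The receptor genes were not higher than with LPS alone by 2-fold in either strain group, and *Il10ra* was lower with CRL1506 + LPS. *Il10ra* codes for the ligand-binding chain of the IL-10 receptor. Its probe 1 read 10830 ± 1080 with LPS, 6656 ± 666 with CRL1505 + LPS and 4766 ± 477 with CRL1506 + LPS, and probe 2 read 1251 ± 125, 615.6 ± 61.9 and 495.6 ± 50.0. Both probes placed the arrays in the same order before scaling, with LPS highest and CRL1506 + LPS lowest. After scaling, the log2 ratio for CRL1506 over LPS was -1.09 with probe 1, 2.13-fold lower (as low as -1.29 with other normalizations, and just short of 2-fold with cyclic loess), and -1.25 with probe 2, 2.37-fold lower (-1.45 to -1.12). For CRL1505 over LPS it was -0.18 with probe 1, with a range of -0.69 to 0.12 that spans 0, and -0.50 with probe 2 (-1.01 to -0.20). CRL1505 + LPS was above CRL1506 + LPS by 0.91 with probe 1 and by 0.75 with probe 2 on the log2 scale. The reading of CRL1506 against LPS is the one made within a slide, and *Il10ra* held place 493 of 16281 from the lowest ratio.

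*Il10rb*, the chain shared by the receptors of IL-10, IL-22 and the type III interferons, read 9954 ± 995 with LPS, 5877 ± 588 with CRL1505 + LPS and 6856 ± 686 with CRL1506 + LPS. The log2 ratio to LPS was -0.24 for CRL1505, with a range of -0.74 to 0.06 that spans 0, and -0.45 for CRL1506 (-0.65 to -0.35). Neither ratio reached 2-fold under any of the 7 other normalizations. *Il20rb*, the chain common to the receptors of IL-19, IL-20 and IL-24, gave dim readings of 126.6 ± 14.4, 62.22 ± 8.79 and 109.3 ± 12.9 with its probe 1, and log2 ratios of -0.50 for CRL1505 (-1.01 to -0.16) and -0.12 for CRL1506 (-0.34 to -0.03). Its lower value for CRL1505 passed 2-fold when the arrays were scaled to spike-in probes and with no other normalization. Probe 2 of *Il20rb* (chr9:100366187-100366246) was well above background on no array.

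Counted together, 2 of 6 compared genes (*Il10* and *Il19*) were at least 2-fold higher with CRL1505 + LPS than with LPS and 0 were at least 2-fold lower, where 9.93% and 8.41% of all compared genes were. This contrast was used to choose them and nothing is read from the count. For CRL1506 over LPS, 1 of 7 (*Il19*) was higher and 1 (*Il10ra*) lower, against 5.67% and 3.53% of all genes. For CRL1505 + LPS over CRL1506 + LPS, 3 of 7 (*Il10*, *Il19* and, through its bound, *Il24*) were higher and 0 lower, against 9.02% and 7.46%, and the number higher ran from 2 to 4 over the other normalizations. The first pair of comparisons share the LPS array and the last shares an array with each, so they are not independent of each other. The comparisons after the first each use an array on which *Il19* was picked, so nothing is read from their counts either. The median log2 ratio was 0.06 for CRL1505 over 6 genes, and -0.12 for CRL1506 and 0.91 between the strains over 7, beside 0.01, -0.06 and 0.03 over all compared genes.

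**Figure D3:**
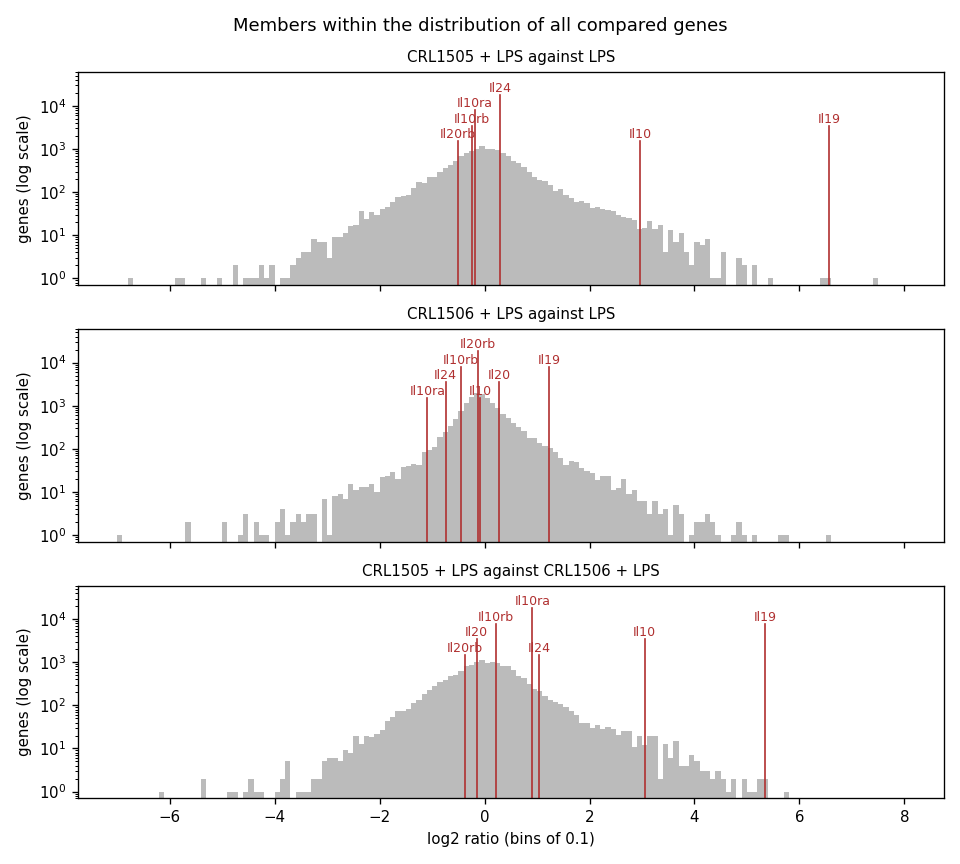
Number of genes (log axis) by log2 ratio in bins of 0.1 for the 3 comparisons, with the ratio of each compared gene of the IL-10 and IL-19 group as a red line, bounds included. *Il19* and *Il10* lie at 6.57 and 2.97 for CRL1505 over LPS and at 5.35 and 3.05 between the strains, in the thin upper end of the distribution, while the receptor genes lie within the bulk apart from *Il10ra* at -1.09 for CRL1506.

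*Il10*, *Il19*, *Il20* and *Il24* form a cluster on chromosome 1, where *Il19* and *Il10* had the highest ratios for CRL1505 over LPS of the genes compared. Of 22 genes with a symbol within 500 kb of the *Il10* probe, 18 are other genes, and 9 of these could be compared for CRL1505 over LPS. Their median log2 ratio was -0.24, with 1 gene past 2-fold upwards and 2 downwards, beside 9.93% and 8.41% of all genes. *Mapkapk2*, which codes for the kinase MK2 and lies 29.3 kb from the *Il10* probe, read 145400 with LPS, 122500 with CRL1505 + LPS and 105600 with CRL1506 + LPS, and had log2 ratios to LPS of 0.28 for CRL1505 and -0.37 for CRL1506.

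The gene past 2-fold upwards was *Srgap2*, 261.0 kb away, with readings of 9823, 17650 and 6827 and log2 ratios of 1.37 for CRL1505 and -0.43 for CRL1506. Those past 2-fold downwards for CRL1505 were *Dyrk3*, 104.2 kb away (-1.23, and -0.47 for CRL1506), and *Fcamr*, through its bound of -1.05 (and -1.33 for CRL1506). The remaining ratios for CRL1505 and CRL1506 were 0.68 and -0.25 for *Ikbke*, which codes for a kinase of interferon induction, and 0.54 and 0.18 for *AA986860*. They were -0.24 and -0.17 for *Eif2d*, -0.40 and -0.50 for *Rassf5*, and -0.34 and -0.28 for *Pfkfb2*. *Yod1* read 119.3 with LPS, 704.5 with CRL1505 + LPS and 96.34 with CRL1506 + LPS, with a log2 ratio of -0.22 for CRL1506. Its high spot on the CRL1505 + LPS array was an outlier, so it was not among the genes compared for CRL1505. *Pigr*, *Fcmr*, *C4bp*, *C4bp-ps1*, *Zp3r*, *Gm16083*, *Gm28856* and *LOC102640771* had probes in the window that were well above background on no array.

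**Figure D4:**
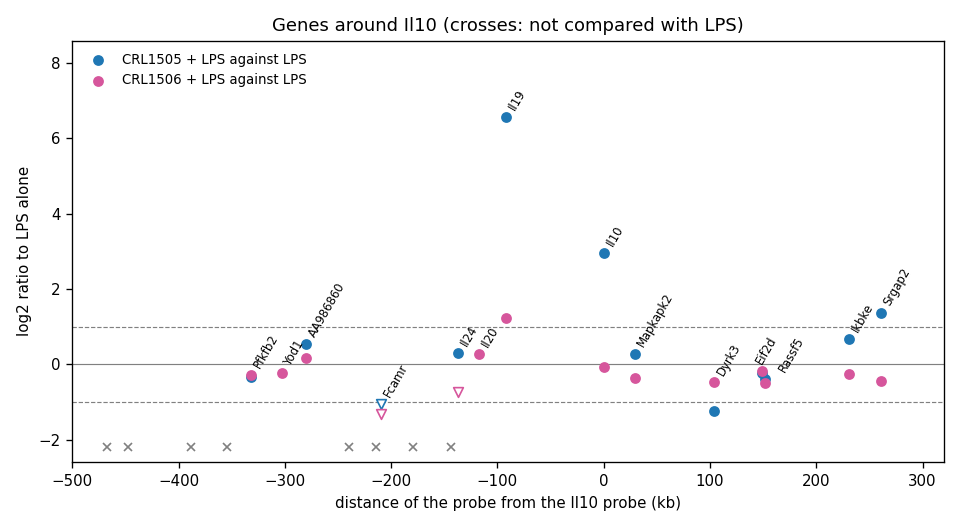
Log2 ratio to LPS alone of genes within 500 kb of the *Il10* probe, by distance of the probe in kb, for CRL1505 + LPS and CRL1506 + LPS. Open triangles are lower bounds of a fall, crosses are genes without a ratio, and dashed lines mark 2-fold. *Il19* at -91.7 kb (6.57) and *Il10* (2.97) stand above their compared neighbours for CRL1505, where *Mapkapk2* is at 0.28 and *Dyrk3* at -1.23. *Yod1* has no ratio for CRL1505 because of an outlier spot.

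The 250 bases before the start of *Il19* and *Il20* are shown because these genes are neighbours on the same strand and only the first was bright with CRL1505 + LPS. They were taken from RefSeq on GRCm38.p6, a later build than that of the probes, and 3 of the 7 genes (*Il19*, *Il20* and *Il20rb*) matched an entry. Capitals mark matches, on either strand, to the NF-kB consensus and to the letters TTCNNNGAA (STAT) and GAAANNGAA (IRF), and no matches overlap.
Il19 (chr1:130940116-130940365, - strand): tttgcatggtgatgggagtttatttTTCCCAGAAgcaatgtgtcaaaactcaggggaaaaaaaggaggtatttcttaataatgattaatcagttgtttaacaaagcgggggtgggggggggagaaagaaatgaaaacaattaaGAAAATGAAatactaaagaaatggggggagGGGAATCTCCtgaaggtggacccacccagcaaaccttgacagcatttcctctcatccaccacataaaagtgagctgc
Il20 (chr1:130911297-130911546, - strand): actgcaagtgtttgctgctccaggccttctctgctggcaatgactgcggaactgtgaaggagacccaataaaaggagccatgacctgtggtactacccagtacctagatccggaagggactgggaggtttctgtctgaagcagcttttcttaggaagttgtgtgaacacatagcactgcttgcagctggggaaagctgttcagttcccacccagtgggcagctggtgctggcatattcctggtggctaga

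The *Il19* window held a STAT match 225 bases before the start, an IRF match at 107 bases and an NF-kB match at 77 bases, while the *Il20* window held a match to none of these. Of 32851 promoters of this length, 7.0% held the STAT letters, 7.1% the IRF letters and 7.3% the NF-kB consensus. The *Il20rb* window held a match to TTNNGCAA (C/EBP, in 9.6% of promoters) 78 bases before the start. None of the 3 windows held TGANTCA (AP-1, in 6.7% of promoters). The TATA box letters TATAAA, in 12.4% of promoters, were in none of them either. The GC content was 42.0% for *Il19* and 52.8% for *Il20*, beside a median of 52.4%. A match of letters is a description of the sequence and not a site of binding. A link of these matches to the readings of *Il19* and *Il20* was not tested.

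The genes whose 3 log2 values, centred on their mean, lay nearest to those of *Il10* among 13123 genes well above background on every array were *Apba1* (distance 0.17), *Gm10839* (0.23) and *Gbp5* (0.25), a guanylate-binding protein gene of the interferon response. Their log2 ratios to LPS ranged from 2.89 to 3.31 for CRL1505 and from -0.31 to 0.16 for CRL1506. No gene lay that close to *Il19*, where the nearest were *Cfap100* (1.53), *Doc2a* (1.91) and *Sprr2e* (2.05). Likeness over 3 arrays is a description.

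Of the other ligands and receptors of the IL-10 family, 7 were on the array, and 4 could be compared for CRL1505 over LPS. *Iltifb*, a mouse copy of the IL-22 gene, read 7.924 with LPS, 100.7 with CRL1505 + LPS and 8.072 with CRL1506 + LPS, and only the middle reading was well above background. With CRL1505 + LPS it was thus at least 4.34-fold higher than with LPS, and at least 4.11-fold higher than with CRL1506 + LPS. It was singled out after its values were seen, and its probe may read transcripts of a near copy such as *Il22*, so its identity is uncertain. The *Il22* probe did not show that pattern, with readings of 51.99, 25.9 and 66.38, of which the second was not well above background.

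Among the partner chains of IL-20RB, *Il22ra1* read 46.38, 19.17 (not well above background) and 64.83, and *Il20ra* was well above background on no array (6.723, 6.007 and 14.61). The other receptor genes *Il22ra2* and *Ifnlr1* were likewise not well above background on any array. *Ifnl3*, a type III interferon gene, read 103.3, 55.61 and 92.47, with log2 ratios of -0.37 for CRL1505 and -0.07 for CRL1506. For CRL1506 over LPS, 0 of 3 compared genes of this list passed 2-fold, beside 5.67% of all genes higher and 3.53% lower. Nothing is read from so small a count.

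JAK-STAT genes that carry or dampen the signal of these receptors were higher with CRL1505 + LPS in several cases. Of 9 compared genes, 4 were at least 2-fold higher than with LPS, beside 9.93% of all genes, and 0 lower, with a median log2 ratio of 0.50 beside 0.01 over all genes (-0.01 to 0.79 over the other normalizations, which gave 3 or 4 genes higher). *Stat3*, the main transcription factor of the IL-10 receptor, read 4170 with LPS, 9486 with CRL1505 + LPS and 5795 with CRL1506 + LPS, a 3.27-fold difference for CRL1505. *Socs3*, a feedback inhibitor that STAT3 induces, read 29800, 58000 and 19970, a 2.80-fold difference. *Socs1*, an inhibitor of JAK kinases, was 2.91-fold higher with CRL1505 + LPS and the kinase gene *Jak2* 2.88-fold higher. The kinase genes of the IL-10 receptor itself were not past 2-fold, with log2 ratios for CRL1505 of 0.33 for *Jak1* and 0.50 for *Tyk2*.

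With CRL1506 + LPS, 0 of the same 9 genes passed 2-fold in either direction, beside 5.67% of all genes higher and 3.53% lower, and their median log2 ratio was -0.02, with a sign that changed between normalizations (-0.22 to 0.09). The log2 ratios to LPS for CRL1506 were 0.57 for *Stat3*, 0.30 for *Socs1*, 0.54 for *Jak2* and -0.49 for *Socs3*. Between the strains, 3 genes were at least 2-fold higher with CRL1505 + LPS (*Socs3*, *Socs1* and *Stat3*) and 0 lower, beside 9.02% and 7.46% of all genes, with a median of 0.87. The number higher ranged from 1 to 5 over the other normalizations. The less bright probes of *Stat3* gave ratios between the strains down to -0.75.

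Of 12 genes that IL-10 is known to raise in macrophages, 5 were at least 2-fold higher with CRL1505 + LPS than with LPS, again beside 9.93% of all genes, and 0 were lower, with a median log2 ratio of 0.79 (0.29 to 1.09). Over the other normalizations, 3 to 7 were higher. *Il1rn*, which codes for the IL-1 receptor antagonist, read 4191 with LPS, 23620 with CRL1505 + LPS and 7365 with CRL1506 + LPS, an 8.10-fold difference for CRL1505. *Fcgr1*, a high-affinity Fc receptor gene, was 5.28-fold higher with CRL1505 + LPS, and *Dusp1*, a phosphatase gene that turns off MAP kinases, was 4.18-fold higher. The others were *Socs3*, counted above as well, and *Zfp36*, which codes for the mRNA-destabilising protein tristetraprolin (2.56-fold, named to complete the count).

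For CRL1506 over LPS, 1 of the 12 was higher and 1 lower, beside 5.67% and 3.53% of all genes, with a median of 0.03 whose sign changed between normalizations (-0.17 to 0.12). *Etv3*, a repressor gene, read 872.3, 682.6 and 1660, a 2.03-fold difference for CRL1506, but its other probe gave a log2 ratio of -0.18. *Bcl3*, which codes for a nuclear IkB protein, read 21460, 17070 and 9210 and was 2.19-fold lower. Between the strains, 6 of 12 were at least 2-fold higher with CRL1505 + LPS and 0 lower, beside 9.02% and 7.46% of all genes, with a median of 1.16 (0.76 to 1.65). The number higher ranged from 4 to 10 over the other normalizations. On the CRL1506 + LPS array, 11 of the 20 spots nearest to the *Zfp36* spot were uneven. With uneven spots and spots in such surroundings left out, the median between the strains was 0.93.

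**Figure D5:**
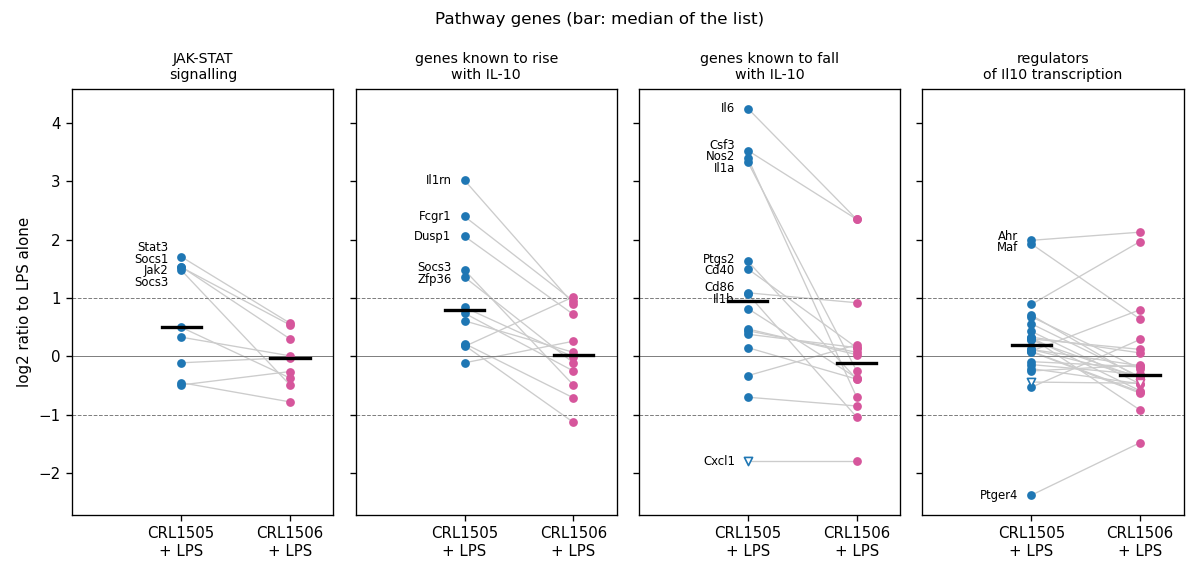
Log2 ratio to LPS alone of the compared genes of 4 lists for CRL1505 + LPS and CRL1506 + LPS, with a grey line joining the values of a gene, black bars for medians, open triangles for lower bounds of a fall and dashed lines at 2-fold. Genes past 2-fold for CRL1505 are named. The medians are 0.50, 0.79, 0.94 and 0.20 for CRL1505 and lie between -0.33 and 0.03 for CRL1506.

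Of 16 compared genes that IL-10 is known to lower in LPS-treated macrophages, 8 were at least 2-fold higher with CRL1505 + LPS and 1 was lower, beside 9.93% and 8.41% of all genes. Their median log2 ratio was 0.94 (0.44 to 1.24), and 5 to 9 were higher over the other normalizations. A link of these genes to the *Il10* reading was not tested. *Il6*, a pro-inflammatory cytokine gene, read 5849 with LPS, 77380 with CRL1505 + LPS and 27990 with CRL1506 + LPS, with log2 ratios to LPS of 4.25 and 2.35 for the strains. *Csf3*, the gene of G-CSF, was 11.6-fold higher with CRL1505 + LPS and 5.09-fold higher with CRL1506 + LPS. *Nos2*, the inducible nitric oxide synthase gene, read 3520, 25790 and 2037, a 10.5-fold difference for CRL1505, and *Il1a* read 505.3, 3523 and 397.8, with a log2 ratio of 3.33.

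The lower gene for CRL1505 was the chemokine gene *Cxcl1*, which read 148, 19.81 (not well above background) and 40.04. It was at least 3.47-fold lower with CRL1505 + LPS and 3.47-fold lower with CRL1506 + LPS. Over the other normalizations the log2 values ran from -2.30 to -0.73 for CRL1505 and from -2.14 to -0.86 for CRL1506. Neither fall was thus past 2-fold with each normalization. For CRL1506 over LPS, 2 of 16 were higher (*Il6* and *Csf3*) and 2 lower, beside 5.67% and 3.53% of all genes. The second lower gene was *Il1b*, which read 41570, 60510 and 18990 and was 2.06-fold lower. The median for CRL1506 was -0.11 (-0.31 to -0.01). *Il12b*, which codes for the p40 chain of IL-12, had log2 ratios of -0.70 for CRL1505 and -0.85 for CRL1506, and *Tnf* had 0.15 and -0.39.

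Of 24 compared regulators of *Il10* transcription, 2 were at least 2-fold higher for CRL1505 and 1 lower, beside 9.93% and 8.41% of all genes, with a median log2 ratio of 0.20 whose sign changed between normalizations (-0.31 to 0.49), and 2 were higher and 1 lower for CRL1506, beside 5.67% and 3.53%, with a median of -0.33 (-0.53 to -0.18) beside -0.06 over all genes. *Maf*, which codes for a transcription factor known to activate *Il10* in macrophages, read 2403 with LPS, 6371 with CRL1505 + LPS and 3516 with CRL1506 + LPS. It was 3.81-fold higher for CRL1505, and its 3 probes gave log2 ratios of 0.76 to 1.93. *Ptger4*, a prostaglandin E2 receptor gene, read 6450, 864.9 and 2166 and was lower with both strains, 5.19-fold for CRL1505 and 2.80-fold for CRL1506.

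*Ahr*, the aryl hydrocarbon receptor gene, read 353.8, 974.8 and 1451, which was 3.96-fold and 4.37-fold above LPS, but its other probe gave log2 ratios of -0.28 and 0.13. *Rps6ka5*, which codes for the kinase MSK1, was 3.90-fold higher for CRL1506 with its brightest probe, while its 3 probes ranged from -0.93 to 1.97. The probes of both genes thus disagreed in direction in at least 1 comparison. Between the strains, 3 of 23 regulators were at least 2-fold higher with CRL1505 + LPS (*Cebpd*, *Maf* and *Nfkb1*) and 1 lower (*Rps6ka5*), beside 9.02% and 7.46% of all genes. The number higher ranged from 0 to 10 over the other normalizations. The 3 probes of *Nfkb1* ranged from -1.17 to 1.10 between the strains, so they also disagreed in direction.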

How the data were processed

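Total RNA was hybridised in 1 colour (Cy3) to SurePrint G3 Mouse GE arrays, 1 for each of 3 groups. The authors deposited the Feature Extraction output (version 12.0.3.1 in the files), in which the processed signal is an intensity with background subtracted and no normalization between arrays, and a table of log2 values normalized between arrays, with a median of 6.77 on each array and a correlation of at least 0.9995 over spots with the log2 processed signal. The setting of that normalization is not given in the sources used here.

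From the log2 processed signal of each spot the array's 75th percentile over gene spots was subtracted (intensities of 743.1 with LPS, 517.0 with CRL1505 + LPS and 697.9 with CRL1506 + LPS). Outlier spots were left out, of which there were 0 among the 13 probes, and no gene spot was saturated. A gene was represented by its brightest probe without an outlier spot, or by its brightest probe where all had one. Genes around *Il10* were shown by their brightest probe in the window, with or without an outlier spot. Where only 1 of 2 compared arrays was well above background, the other was set to the lowest signal well above background on it (33.3, 29.6 and 33.1) or its own if higher, and the ratio is a bound. A bound holds for the scaling it was made with. Genes were counted at 2-fold, the threshold of the study's methods. Their t-test could not be run on single arrays. Precision is limited by the number of arrays. Software errors describe single spots.

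The genes, the lists and the alternatives were chosen with earlier results of these data known, and the NF-kB and IRF motifs replaced other forms that had been searched. Some genes of the lists are not reported here. Named genes of a list are up to 4 with the largest ratio to LPS past 2-fold in each comparison, and others (among them *Zfp36*, *Jak1*, *Tyk2*, *Il12b*, *Tnf*, *Cebpd*, *Nfkb1* and the other family members) were named after their values were seen. Alternatives were shifts by the median, by the 75th percentile over probes well above background on all arrays and by spike-in probes, quantile and cyclic loess normalization, normexp (offset 50), the deposited log2 table, the mean over probes, other treatment of outlier, uneven and dim spots, and thresholds of 1.5-fold and 4-fold. Python 3.11.15, pandas 2.3.3, NumPy 2.4.6, R 4.3.3 and limma 3.58.1 were used. The procedure was tested on simulated data in which only bright genes changed. Bounds and changes of dim genes were not part of that test. Probe positions are those of the files (mm9), and promoters are from RefSeq (GRCm38.p6).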

Additional observations from a re-analysis of the deposited data

How the results depend on the processing

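Over the alternatives, no ratio of the 7 genes past 2-fold in the report changed sign, but several crossed the 2-fold line. Single genes of the lists were checked over the 7 other normalizations only. For *Il10* with CRL1505 over LPS, the log2 ratio of 2.97 became 3.26 with a shift by the median, 2.46 with spike-in scaling, 2.58 with normexp background correction and 2.58 in the deposited log2 table. For *Il19* the ratio of 6.57 became 6.87, 6.07, 5.55 and 5.41 under the same settings in the same order, and 6.05 as the mean over probes. Its ratio of 1.23 for CRL1506 became 0.72 with normexp, 0.56 in the deposited table and 0.91 as the mean over probes. The count of the 7 genes past 2-fold upwards for CRL1506, 1 in the report, was 0 with normexp, in the deposited table, with the mean over probes and at 4-fold. The count past 2-fold downwards for CRL1506, 1 in the report, was 2 with quantile normalization, with no filter on dim probes and at 1.5-fold, and 0 with cyclic loess and at 4-fold. That for CRL1505 was 1, in place of 0, with spike-in scaling. Between the strains, the count upwards of 3 ran from 2 to 4, with *Il24* at 0.65 with spike-in scaling. Of 180 further values of the genes, 141 moved by less than the SD between a gene's probes and 39 moved by more. Some values near 0 changed sign, such as *Il24* for CRL1505 over LPS (0.30 in the report and -0.20 with spike-in scaling). The SD had a median of 0.228 for CRL1505 over LPS, 0.215 for CRL1506 over LPS and 0.323 between the strains. Of 180 further medians of lists, 145 moved by less than that SD.

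The median log2 ratio of all genes, over those well above background on both arrays, was 0.06 for CRL1505, -0.06 for CRL1506 and 0.09 between the strains. It was 0.35, -0.26 and 0.58 with a shift by the median and -0.45, -0.17 and -0.31 with spike-in scaling, so ratios near 0 change sign with the scaling. For CRL1505 over LPS, 16% of genes were past 2-fold upwards and 5.03% downwards with a shift by the median, and 4.97% and 19.7% with spike-in scaling. Between the strains these shares were 23.6% and 2.91%, and 5% and 16.6%, and for CRL1506 over LPS they were 4.12% and 5.37%, and 4.79% and 4.28%. With 1 array per group no replicate could be left out. No paired analysis was possible because each group has a single array. Signals of *Il20*, *Il24*, *Il20rb* and, with LPS, *Il19* were near the level at which spots were well above background, which limits their folds.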
